A study of Mus musculus with 96 samples.

Results

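The switch that commits a cell to mitosis was followed through the transcripts of 10 genes, of 15895 in the table: the kinase Cdk1, its cyclins Ccnb1 and Ccnb2, the inhibitory kinases Wee1 and Pkmyt1, the activating phosphatases Cdc25a, Cdc25b and Cdc25c, and the kinases Chek1 and Plk1. They were chosen by gene symbol, and each of the 10 was found on 1 row. The cells were primary fibroblasts of CF-1 mouse embryos (MEFs, day 13 of gestation), with no genetic change named in the labels. All of them spent 36 h in medium with 0.5% fetal calf serum (FCS), and serum was then raised to 20%. A first time course, Cycle 1 (63 libraries used), began 1 h ahead of serum and ended at 38 h, and a second, Cycle 2 (32 libraries used), ended at 27 h, with 1 library per time. The groups compared were the starved libraries at -1 and 0 h of each course (4 in all) and windows of hours after serum. Each of the 29 hours sampled in both courses had 1 library per course, and the courses served as the replicates of an hour. The labels do not say whether the courses came from separate embryos or cultures, so p-values measure the spread between these libraries only. The test also treats hours as independent, which successive libraries are not, so small p-values may overstate the evidence from the courses.

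Cdk1 bound to cyclin B is the kinase that drives a cell from G2 into mitosis. Wee1, in the nucleus, and Pkmyt1 (Myt1), at the membranes of the Golgi and endoplasmic reticulum, add inhibitory phosphates to Cdk1, and the Cdc25 phosphatases take them off. Chek1 (Chk1) restrains the Cdc25 proteins when DNA is damaged or replication is unfinished, while Plk1 promotes the loss of Wee1 and the activation of Cdc25 proteins. Active Cdk1 in turn acts on Wee1 and Cdc25, which makes the switch abrupt. Fibroblasts leave the cycle when serum is withdrawn and re-enter it together, though incompletely in step, when serum returns. Cdk1, the B cyclins, Plk1, Cdc25b and Cdc25c are known as G2/M genes, whose promoters are commonly bound by NF-Y at CCAAT boxes and by MuvB complexes at a cell cycle gene homology region (CHR), while E2F sites are typical of genes of the G1/S border such as Cdc25a.

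Promoters were available for 7 of the 10 genes in RefSeq on the build GRCm38.p6, each from 250 bases before to 50 bases after the gene start. The 4 stretches shown run from base -150 to base -1, and were chosen because they place a very early riser (Cdc25a) beside the kinase and both cyclins. Capitals mark letters searched on either strand. They are CCAAT, which is read as ATTGG from the other strand, the CHR as TTTGAA or in the form of TTCGAA, and the E2F site as TTCCCGC, in a form with TTGGCGC, or as TTCGCGC.
Cdk1, chr10:69352913-69353062, minus strand: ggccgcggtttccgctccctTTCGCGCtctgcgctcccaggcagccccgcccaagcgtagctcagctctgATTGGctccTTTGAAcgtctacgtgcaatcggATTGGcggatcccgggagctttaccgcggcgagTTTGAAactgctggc
Ccnb1, chr13:100786487-100786636, minus strand: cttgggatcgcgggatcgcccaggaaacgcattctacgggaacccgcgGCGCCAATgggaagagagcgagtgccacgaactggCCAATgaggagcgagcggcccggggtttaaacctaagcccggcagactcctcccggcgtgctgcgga
Ccnb2, chr9:70421555-70421704, minus strand: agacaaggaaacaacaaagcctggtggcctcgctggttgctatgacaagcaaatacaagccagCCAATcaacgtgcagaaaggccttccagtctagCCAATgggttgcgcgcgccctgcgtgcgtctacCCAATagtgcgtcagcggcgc
Cdc25a, chr9:109875429-109875578, plus strand: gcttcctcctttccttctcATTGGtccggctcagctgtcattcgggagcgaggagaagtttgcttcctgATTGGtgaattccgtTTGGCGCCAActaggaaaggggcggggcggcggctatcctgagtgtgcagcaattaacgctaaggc
In the Ccnb1 stretch an E2F match on the other strand overlaps a CCAAT box, and in the Cdc25a stretch 2 E2F matches overlap on opposite strands.

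CHR letters close to the gene start of Ccnb2, Plk1 and Cdc25b are shown within windows of 24 bases. A further TTTGAA of Ccnb2 at bases -167 to -162 is not shown.
Ccnb2, chr9:70421536-70421559, minus strand: ggcgcggtaTTTGAAtcgcggacc
Plk1, chr7:122159456-122159479, plus strand: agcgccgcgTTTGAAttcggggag
Cdc25b, chr2:131186946-131186969, plus strand: ctgttatttTTCGAAtatataagg
Over the whole 300-base windows CCAAT was found in 6 of the 7 promoters (37.4% of all 32851 promoters), TTTGAA in 3 (17.9%), TTCGAA in 1 (1.56%) and an E2F match in 4 (8.07%). CCAAT together with CHR letters was found in 4 of the 7, those of Cdk1, Ccnb2, Cdc25b and Plk1, and in 7.53% of all promoters. Cdc25a held CCAAT and E2F letters but neither form of the CHR letters, and Chek1 held an E2F match alone. These are matches of letters and not shown sites.

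The values are a normalized signal, the reads on a gene's exons scaled to a common library total, counted without regard to strand, so reads of a gene overlapping on the other strand cannot be told apart. Reads on the listed genes, worked out from the value of a single read in each library, were 4352235 to 12551892 per library (median 9375098). The lowest member value rested on 13 reads, for Cdc25c in the 6 h library of Cycle 1, a counting error of 27.7%, and the highest Cdk1 value carried a counting error of 1.27%. The fibroblast markers fixed for the check (Col1a1, Col1a2, Col3a1, Pdgfra, Pdgfrb, Thy1, Vim and Fn1) were all present, with summed levels of 171906 to 531590. All 4 leukocyte markers were present (Ptprc, Emr1, Cd68 and Lyz2), their sum was 389 to 1649 in Cycle 1 and 623 to 4457 in Cycle 2, mostly Lyz2, and Ptprc was between 2.62 and 91.4. The 4 endothelial and 4 epithelial markers summed to at most 272 and 578. The 3 muscle markers summed to at most 1442 in Cycle 1 and 2180 in Cycle 2, mostly Des, and the 3 erythroid markers were not analysed here. Their part in the results was not tested. One library of Cycle 1, at 24.5 h, stood apart. Its median deviation from its neighbours was 0.41 on the log2 scale against 0.087 for a typical library, and Chek1 was at 105 there between 296 and 276, while Plk1 reached 2271 between 1403 and 1540. It enters no tested window.

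Starved cells of the 2 courses differed widely in the switch genes. Cdk1 (NCBIM37 chromosome 10, 68799383 to 68815686) stood at 696 and 576 at -1 and 0 h of Cycle 1, and at 2312 and 2063 in Cycle 2. Ccnb1 (chromosome 13, 101548605 to 101556525) was at 110 and 116 in Cycle 1 and at 413 and 416 in Cycle 2, and Plk1 (chromosome 7, 129302951 to 129313389) at 265 and 245 against 856 and 819.9. For all 10 genes both starved libraries of Cycle 2 lay above both of Cycle 1, and the share of all genes for which this held was not worked out. The ratio of the means was 3.68 for Ccnb1, 3.44 for Cdk1 and 3.29 for Plk1, then 2.57 for Cdc25c, 2.29 for Ccnb2, 2.16 for Wee1, 1.96 for Pkmyt1, 1.82 for Chek1, 1.64 for Cdc25b and 1.29 for Cdc25a. Among 9480 genes with a starved mean of at least 100 the median ratio was 0.996, and 4.48% were above 2, as 6 of the 10 switch genes were. These ratios rest on 2 libraries each and carry no test. In bulk RNA, more cells left in the cycle and more RNA per cell cannot be told apart.

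By 24 to 27 h the levels of the courses had come close together. Cdk1 was at 3353, 3754, 2591 and 3007 in Cycle 1 and at 2713, 2936, 2717 and 2776 in Cycle 2, and the ratio of Cycle 2 to Cycle 1 had gone from 3.44 to 0.877. Over the 10 genes this ratio had a median of 2.22 when starved, 3.34 at 4 to 6 h, 1.15 at 11 to 14 h and 0.789 at 15 to 18 h. It was 0.750 at 19 to 23 h, where all 10 genes were lower in Cycle 2 (0.647 to 0.874), and 0.836 at 24 to 27 h. Against its own starved libraries, each course gave a different picture. All 10 genes were at least 2 times their starved mean in 2 libraries in a row in Cycle 1, and none in Cycle 2. The highest fold of Cdk1 was 7.12 in Cycle 1 and 1.37 in Cycle 2, that of Ccnb1 6.64 and 1.47, and that of Cdc25a 3.32 and 1.80. Going down, 7 genes stayed at or below 0.5 of starved for 2 libraries in a row in Cycle 1 and 3 (Ccnb2, Wee1 and Cdc25c) in Cycle 2, against 4 and 0 when libraries were rescaled with TMM factors. The share of all genes meeting either rule was not worked out, and Cycle 1 had more libraries in which to meet it. The counts therefore only describe the 10 genes and do not set them apart from other genes.

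**Figure D1:**
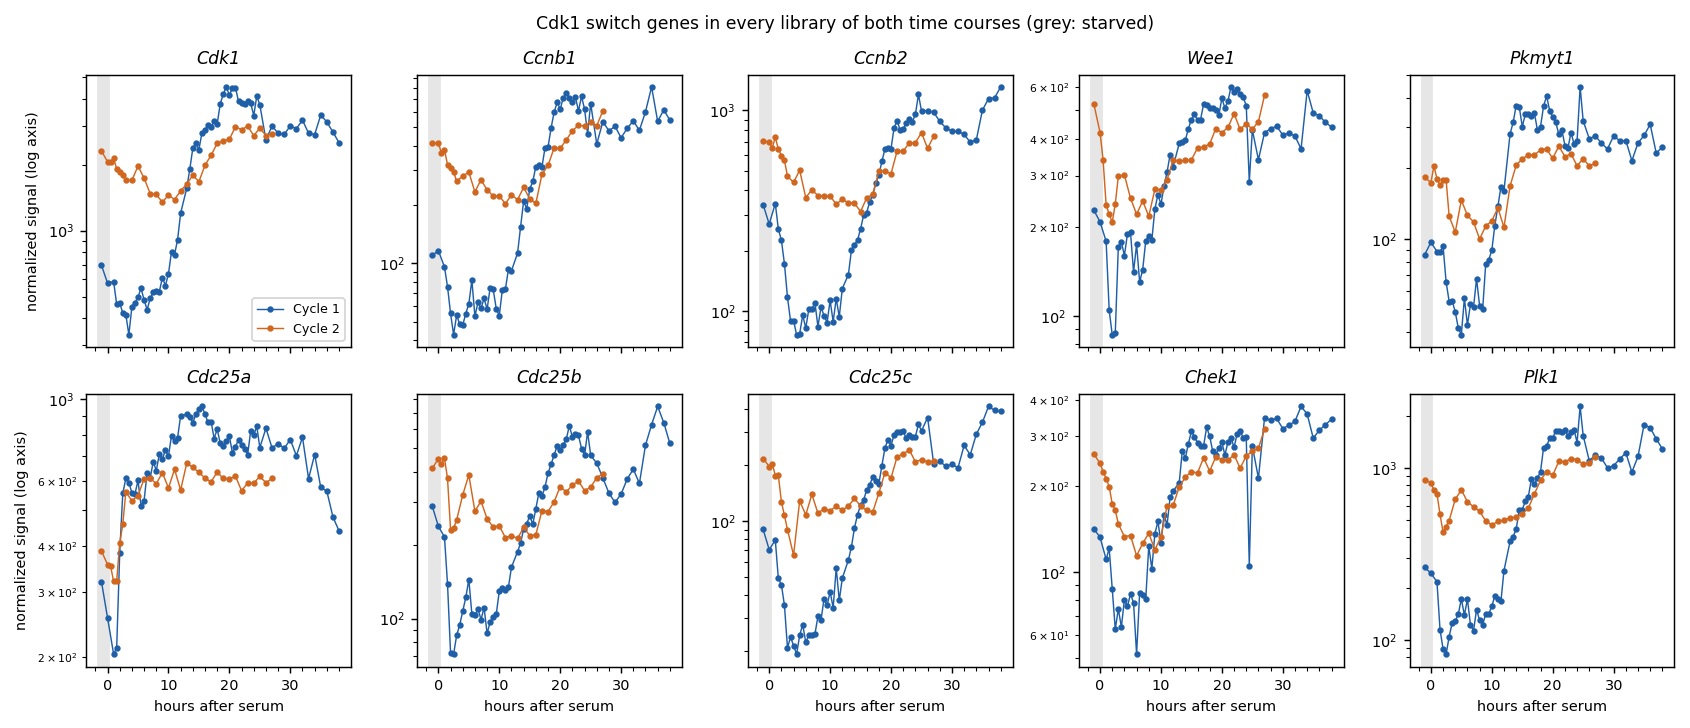
Normalized signal (log axis) of the 10 genes against hours after serum, 1 point per library, Cycle 1 in blue and Cycle 2 in orange, starved libraries on grey. Cycle 2 starts higher for every gene (Cdk1 2312 and 2063 against 696 and 576), and the courses meet at 11 to 18 h for most.

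**Figure D2:**
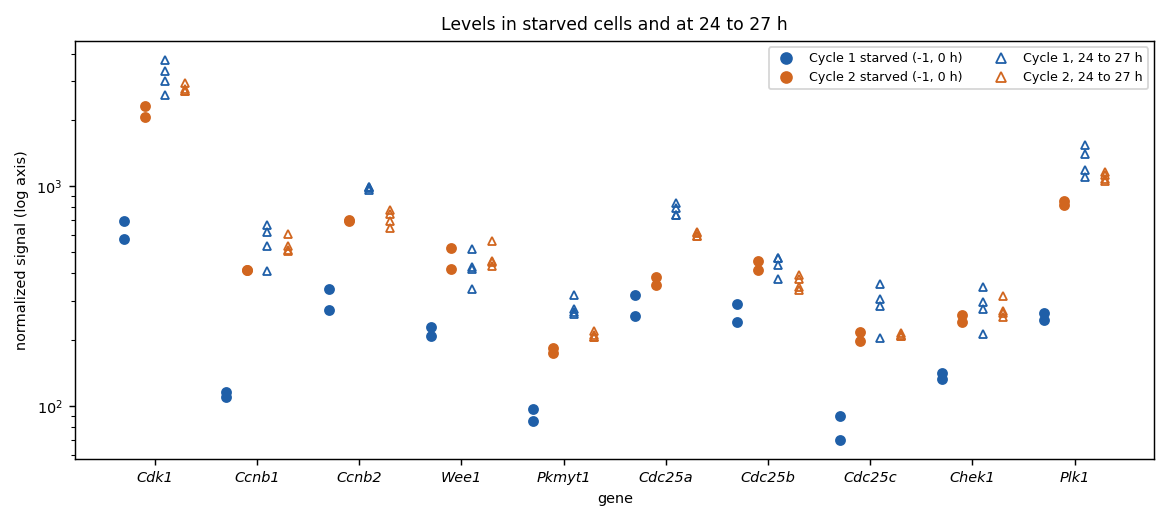
Normalized signal (log axis) of each gene in single libraries: filled circles are the 2 starved libraries of a course, open triangles the 4 libraries at 24 to 27 h. The starved circles of Cycle 2 lie above those of Cycle 1 for all 10 genes, while the triangles of the courses lie near each other.

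At 3 h after serum 9 of the 10 genes stood below both starved libraries of their course, and Cdc25a stood above them. The share of all genes below both was not worked out. Cdc25b, the phosphatase thought to act first on Cdk1 at the centrosome, had values that came to whole reads in 47.4% of libraries, against at least 98.9% for the other 9 genes. It went from 289 and 239 in starved cells to 217, 139, 72.1, 71.4 and 85.3 at 1, 1.5, 2, 2.5 and 3 h of Cycle 1. In Cycle 2 it went from 414 and 454 to 457, 377, 232, 235 and 254 at the same times. The lowest level at 1 to 3 h was thus 0.27 of starved in Cycle 1 and 0.53 in Cycle 2. For Wee1 these shares were 0.40 and 0.44, for Plk1 0.33 and 0.51, for Cdc25c 0.26 and 0.44, and for Cdk1 0.65 and 0.78. By the limma test, with a call needing an adjusted p under 0.05 and a log2 difference above 1 in size, none of the 10 was called at 1 to 3 h, where 5.30% of all genes were called higher and 11.8% lower. Wee1 had the smallest p, with a log2 difference of -0.92 (standard error 0.23, adjusted p = 0.00121 from limma), Cdc25b was also at -0.92 (0.35, adjusted p = 0.0274) and Chek1 at -0.55 (0.22, adjusted p = 0.0323). At an unadjusted p under 0.05 these 3 were lower and none was higher. edgeR on whole reads, run without the -1 h library of Cycle 1 and the 18 h library of Cycle 2, called 0, as it did on all libraries. The call for Wee1 appeared without either starved library of Cycle 1 (-1.04 without -1 h, -1.09 without 0 h), and that for Cdc25b without the 0 h library (-1.01). The median gene also moved down by 0.26 on this scale, and by 0.04 after TMM scaling, while the median of the 10 genes was -0.59 and -0.36.

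Wee1, Plk1 and Cdc25b had a passing high at 4 to 6 h after their low at 1 to 3 h. Wee1 (chromosome 7, 117265864 to 117285626) was at 86.4 at 2 h and 193 at 5 h of Cycle 1, and at 208 at 2 h and 302 at 4 h of Cycle 2. The highest level at 4 to 6 h was 2.23 and 1.45 times the earlier low for Wee1, 2.09 and 1.76 times for Plk1 and 2.02 and 1.67 times for Cdc25b. These 3 were picked after their values were seen, and these highs were not tested. Lower values followed, with Wee1 at 218 at 8 h, Plk1 at 467 at 10 h and Cdc25b at 213 at 13 h of Cycle 2. Ccnb2 and Cdc25c gave 0.81 and 1.07 times, and 1.33 and 1.43 times.

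Cdc25a (chromosome 9, 109778083 to 109796392), the phosphatase that also acts at the G1/S border on Cdk2, was at its lowest at 1 h and stood above starved from 2 h on. In Cycle 1 it went from 204 at 1 h and 211 at 1.5 h to 383, 555 and 609 at 2, 2.5 and 3 h. In Cycle 2 it went from 320.3 and 321 to 407, 457 and 559. All 3 libraries of each course at 4, 5 and 6 h were above the starved mean, at 557, 601 and 531 against 288 and at 530.0, 547 and 608 against 372. The log2 difference from starved was 0.78 at 4 to 6 h (standard error 0.15, adjusted p = 4.42e-05 from limma), short of the size a call needs. None of the other 9 had a mean above starved at 4 to 6 h in either course.

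Between 4 and 14 h the genes called lower than in starved cells were Ccnb2, Cdc25c and Cdc25b. At 4 to 6 h 2 of the 10 were called lower, Ccnb2 (log2 difference -1.28, standard error 0.46, adjusted p = 0.0162 from limma) and Cdc25c (-1.42, 0.46, adjusted p = 0.00811), and none higher, where 19.6% of all genes were called lower and 7.81% higher. At 7 to 10 h 3 were lower, Ccnb2 (-1.25), Cdc25b (-1.04) and Cdc25c (-1.01), against 17.0% of all genes, and none higher, against 7.29%. The share of members is near that of all genes, and edgeR on whole reads called 1 lower in each window. Chek1 was at -0.96 at 4 to 6 h (0.24, adjusted p = 0.000785) and passed the size of a call without the -1 h (-1.05) or 0 h (-1.09) library of Cycle 1. Ccnb2 (chromosome 9, 70255496 to 70269361), a cyclin held at the Golgi for much of interphase, was at 102, 83.8, 95.2 and 113 at 7, 8, 9 and 10 h of Cycle 1, and at 402, 377, 376 and 373 in Cycle 2. All 8 values lay below the starved libraries of their own course. With the courses taken alone the differences of Ccnb2 were -1.62 in Cycle 1 and -0.87 in Cycle 2. Without the course in the model the calls of Ccnb2 at 4 to 6 h (adjusted p = 0.0626) and of Ccnb2 and Cdc25c at 7 to 10 h (0.0568 and 0.105) were lost, and TMM scaling ended those of Cdc25b (-0.93) and Cdc25c (-0.90) at 7 to 10 h and added Cdc25a as higher (1.06). A pseudocount of 10 ended the same pair of calls (-1.00 and -0.90). The call of Cdc25c at 7 to 10 h was also lost without the -1 h library of Cycle 1 (adjusted p = 0.0697) or without the -1 h or 0 h library of Cycle 2 (0.12 and 0.102), and that of Cdc25b without the 0 h library of Cycle 2 (-0.98).

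At 11 to 14 h Cdc25a was called higher (log2 difference 1.17, standard error 0.14, adjusted p = 2.54e-08 from limma), against 6.97% of all genes. Ccnb2 was called lower (-1.01, 0.43, adjusted p = 0.0433), against 16.5%. This last call was lost whichever starved library was left out, with adjusted p between 0.0512 and 0.0916. It was also lost under TMM scaling (-0.95), with a pseudocount of 10 (-0.98), without the course in the model (adjusted p = 0.122) and with edgeR on whole reads (-0.94).

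The courses parted at 11 to 18 h when set against their own starved cells. At 11 to 14 h Cdk1 was at 778, 1202, 1561 and 2375 in Cycle 1, all above its starved libraries, and at 1387, 1519, 1630.1 and 1791 in Cycle 2, all below them. At 15 to 18 h it was at 2345, 2885, 2968 and 3064 in Cycle 1, and at 1674, 1990.4, 2207 and 2504 in Cycle 2. The pooled difference of Cdk1 at 15 to 18 h was called, at 1.03 (standard error 0.45, adjusted p = 0.046 from limma), but it came from Cycle 1 with 2.14, while Cycle 2 alone gave -0.08. It was lost without either starved library of Cycle 1 (0.89 without -1 h, 0.80 without 0 h), without the course in the model (adjusted p = 0.0913) and by edgeR on whole reads (0.0827), but not by edgeR on all libraries. Pkmyt1 (chromosome 17, 23863303 to 23873696) was called at 1.08 (0.34, adjusted p = 0.0072) and was higher in both courses, by 1.81 and 0.36, although without the -1 or 0 h library of Cycle 1 it was at 0.93 and 0.99. Cdc25a was called at 1.18 (0.14, adjusted p = 2.34e-08). Thus 3 of the 10 were higher at 15 to 18 h, against 6.93% of all genes, and none lower, against 16.8%.

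**Figure D3:**
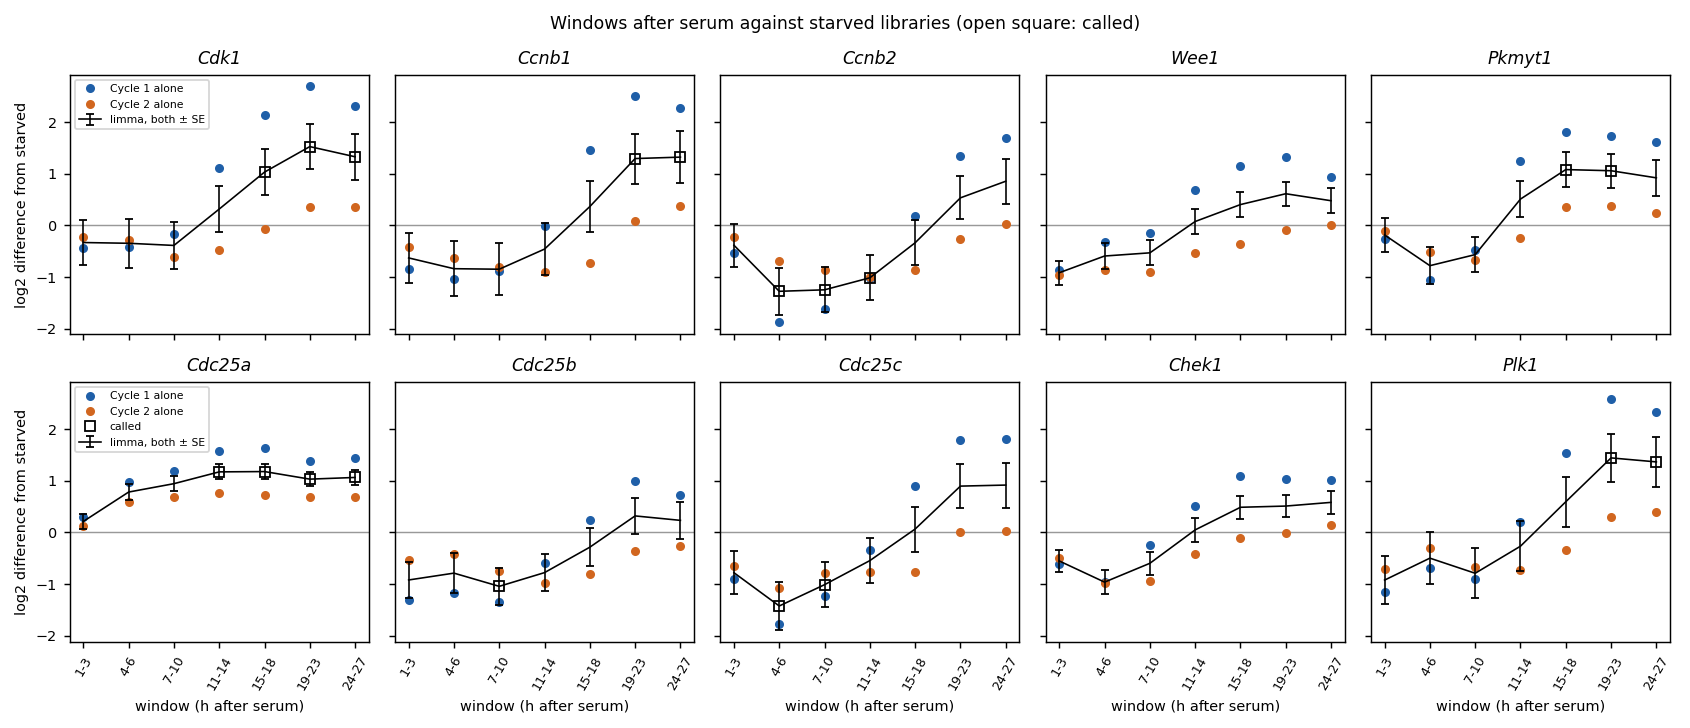
Log2 difference of each window after serum from the starved libraries. Dots are the courses taken alone (blue Cycle 1, orange Cycle 2), the black line is the limma estimate from both with its standard error, and open squares mark called windows. From 15 to 18 h on, the blue dots lie above the orange ones for every gene (Cdk1 2.14 and -0.08 at 15 to 18 h).

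At 19 to 23 h Cdk1 stood at its highest mean of the windows in both courses. It was at 4199.8, 4148, 4499.5, 3810.4 and 3909.7 at 19, 20, 21, 22 and 23 h of Cycle 1, and at 2569.9, 2609, 2986, 2887 and 3001 in Cycle 2. All 10 values lay above the starved libraries of their course, and the log2 difference was 1.53 (standard error 0.43, adjusted p = 0.00268 from limma), the courses alone giving 2.70 and 0.36. Ccnb1, the cyclin that enters the nucleus with Cdk1, was at 598, 621, 749, 678 and 607 in Cycle 1 and at 392, 390.0, 430.5, 480.0 and 511 in Cycle 2. Only 3 of these 5 libraries of Cycle 2 exceeded the starved mean of 415, and the log2 difference of 1.30 (0.48, adjusted p = 0.0196) divided into 2.51 and 0.08. Ccnb2 was at 642, 646, 888, 811 and 909 in Cycle 1, all above starved, and at 498, 484, 629, 626 and 689.7 in Cycle 2, all below starved. Its difference of 0.54 was not called (0.42, adjusted p = 0.265). Expressed per kilobase of the longest coding transcript, Cdk1 at 1425 ± 93.5 (SD, n = 5) exceeded Ccnb2 at 506 ± 83.5 and Ccnb1 at 261 ± 25.4 in Cycle 1, and the order was the same in Cycle 2, at 974 ± 71.7, 379.9 ± 58.4 and 177 ± 21.6. Each SD was taken over 5 successive hours of a course, which are not replicates, so it includes change over time.

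Plk1, which also builds the spindle poles, was at 1337, 1488, 1638, 1655 and 1615 at 19 to 23 h of Cycle 1 and at 951, 908, 1089, 1083 and 1133 in Cycle 2. All 10 values were above starved, and the log2 difference was 1.44 (standard error 0.47, adjusted p = 0.00746 from limma). Of the inhibitory kinases, Pkmyt1 was called at 1.06 (0.33, adjusted p = 0.00595), with 407, 331, 279.6, 250.2 and 284 in Cycle 1 and 242, 220.4, 249, 225 and 231 in Cycle 2. Wee1 was at 502, 549, 539, 575 and 569 in Cycle 1, where all 5 were above starved, and at 433, 419.9, 437, 487 and 430.4 in Cycle 2, where 4 of 5 were below. Its difference of 0.61 had an adjusted p of 0.0212 from limma and missed the size of a call. Cdc25a was called at 1.03 (0.14, adjusted p = 1.22e-07), whereas Cdc25b was at 0.32 (0.35, adjusted p = 0.434) and Cdc25c at 0.90 (0.42, adjusted p = 0.0614). Chek1 was at 0.51 (0.22, adjusted p = 0.0397). In all 5 of the 10 were called higher (Cdk1, Ccnb1, Plk1, Pkmyt1 and Cdc25a), against 6.99% of all genes, and none lower, against 18.4%. The calls of Ccnb1, Cdc25a and Pkmyt1 were lost without the -1 h library of Cycle 1 (1.13, 0.99 and 0.91) and without its 0 h library (1.15, 0.88 and 0.97), Ccnb1 also without the course in the model (adjusted p = 0.0676), and Pkmyt1 by edgeR on whole reads (0.97) but not by edgeR on all libraries.

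At 24 to 27 h 4 of the 10 were called higher (Cdk1 1.33, Ccnb1 1.32, Plk1 1.37 and Cdc25a 1.07, with standard errors of 0.45, 0.50, 0.48 and 0.14), against 6.42% of all genes, and none lower, against 19.2%. All 4 calls were lost without the 0 h library of Cycle 1, at 1.09, 1.18, 1.21 and 0.92, and that of Ccnb1 also without the -1 h library of Cycle 1 (adjusted p = 0.0779) and without the course in the model (0.0729). Under TMM scaling 6 were called, with Cdc25c (1.01) and Pkmyt1 (1.01) added. The windows share their starved libraries, so their differences are not independent of one another.

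Measured from 7 to 10 h rather than from starved cells, the genes called had differences above 0 in both courses. Those of Ccnb1 and Cdc25c at 15 to 18 h of Cycle 2 were close to 0. From 7 to 10 h to 15 to 18 h 6 of the 10 rose, against 3.10% of all genes, and none fell, against 3.62%. They were Pkmyt1 (log2 difference 1.65), Cdk1 (1.42), Plk1 (1.39), Ccnb1 (1.21), Chek1 (1.09) and Cdc25c (1.08), with standard errors from 0.18 to 0.41 and adjusted p from 2.16e-05 to 0.0195 in limma. The gain was larger in Cycle 1 than in Cycle 2 for each of the 6, and this difference was not tested. It was, for example, 2.31 and 0.53 for Cdk1, 2.34 and 0.08 for Ccnb1, 2.13 and 0.02 for Cdc25c, and 1.33 and 0.84 for Chek1. Ccnb1 (adjusted p = 0.0786) and Cdc25c (0.0597) lost their calls without the course in the model, and Cdc25c also with a pseudocount of 10 (0.95) and by edgeR on all libraries (0.93). From 15 to 18 h to 19 to 23 h none was called in either direction, where 3 genes of all were higher (0.0189%) and 15 lower (0.0944%). Ccnb1 (0.93, adjusted p = 0.275 from limma), Ccnb2 (0.87), Plk1 (0.85) and Cdc25c (0.83) had the largest differences, 5 of the 10 had an unadjusted p under 0.05, and edgeR on whole reads also called 0. Taken alone, Cycle 1 and Cycle 2 gave 1.06 and 0.80 for Ccnb1, 1.15 and 0.59 for Ccnb2, 1.06 and 0.64 for Plk1, and 0.90 and 0.77 for Cdc25c. Cdc25a was lower in both (-0.25 and -0.05). These values by course were not tested. From 19 to 23 h to 24 to 27 h again none was called, against 0 genes higher (0.00%) and 4 lower (0.0252%) of all. No member had an unadjusted p under 0.05 there, edgeR called 0 members and 0 genes higher, and member differences ran from -0.20 for Cdk1 to 0.32 for Ccnb2.

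Over the whole step from 7 to 10 h to 19 to 23 h, a comparison added after the starved libraries were seen to differ, 9 of the 10 rose, against 3.95% of all genes, and none fell, against 6.09%. Plk1 had the largest difference at 2.24 (standard error 0.37, adjusted p = 8.61e-06 from limma). Plk1 was at 114, 131, 142 and 157 at 7, 8, 9 and 10 h of Cycle 1 and at 594, 561, 492 and 467 in Cycle 2, so every library at 19 to 23 h exceeded every one of these in its course. Ccnb1 followed at 2.14 (0.39, adjusted p = 2.78e-05), then Cdk1 at 1.91, Cdc25c at 1.91, Ccnb2 at 1.78, Pkmyt1 at 1.62, Cdc25b at 1.36, Wee1 at 1.14 and Chek1 at 1.11. Cdc25c, the phosphatase phosphorylated by Cdk1 itself at mitotic entry, was at 24.5, 30.8, 38.2 and 41.7 at 7 to 10 h and at 247, 254, 299, 303 and 290.2 at 19 to 23 h in Cycle 1. In Cycle 2 it was at 139, 110.2, 116 and 114, then at 182, 171, 222, 229 and 241. The hours did not overlap in either course. Cdc25b (chromosome 2, 131012685 to 131024233) went from 99.0, 86.9, 102 and 129.6 to 469.5, 493, 545, 556 and 566 in Cycle 1. In Cycle 2 the groups overlapped by 1 library, with 304, 257, 238 and 240.1 before and 302, 349, 331, 354 and 367 after. Chek1 (chromosome 9, 36516067 to 36534650) went from 83.0, 123, 136 and 127 to 257, 284, 285, 273 and 311 in Cycle 1, and from 126, 137, 119 and 133 to 253, 247, 245, 257 and 231 in Cycle 2. Cdc25a, already high at 7 to 10 h, differed by 0.09 (0.11, adjusted p = 0.545). By edgeR on whole reads 9 were also called.

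The order in which the genes rose was read from the half-rise time, the last upward crossing of the midpoint between the trough after serum and the peak at 15 to 27 h, on the 3-library running median. The first and last libraries of a course were kept as measured. Cdc25a came first in both courses, at 6.29 h in Cycle 1 and 2.64 h in Cycle 2. Pkmyt1 (12.3 and 13.2 h) and Chek1 (12.7 and 14.9 h) followed, then Wee1 (11.8 and 18.2 h) and Cdk1 (14.8 and 16.9 h). Plk1 (17.5 and 17.7 h), Cdc25b (16.7 and 19.1 h), Cdc25c (18.2 and 18.6 h), Ccnb1 (17.4 and 20.5 h) and Ccnb2 (18.4 and 20.4 h) came last. In this reading the inhibitory kinases and Chek1 reached their midpoint before the cyclins in both courses. Some other settings did not keep this order. In Cycle 1 Chek1 had the latest half-rise of all without smoothing, at 24.8 h. The same held at 75% of the way (25.9 h) and from the 7 to 10 h mean (25.2 h). In Cycle 2 Wee1 was the latest at 75% of the way, at 26.2 h. With the starved mean in place of the trough, 9 genes had a time in both courses. There Chek1 was the latest in Cycle 1, at 25.4 h, and Wee1 in Cycle 2, at 26.6 h. Neighbours among the last 5 lay closer to each other, on the mean of the courses, than the difference between the courses for Cdc25b (2.41 h), Ccnb1 (3.03 h) and Ccnb2 (2.00 h). Wee1 differed most between the courses, by 6.43 h. Its time in Cycle 2 rests on a peak of 562 in the last library, at 27 h, kept as measured, against 457 at 26 h. A reading without that library was not run. Of the 10 genes 9 had a later half-rise in Cycle 2, and Cdc25a an earlier one, by 3.65 h. That of Cdc25a turns on the last crossing, since in Cycle 1 it was at 609 at 3 h and at 514 at 5.5 h. With the midpoint on the log2 scale it came at 2.21 h in Cycle 1 and 2.44 h in Cycle 2, and all 10 genes were later in Cycle 2. Spearman's rho between the courses was 0.721 over the 10 genes, a description with no test, since the genes share libraries.

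**Figure D4:**
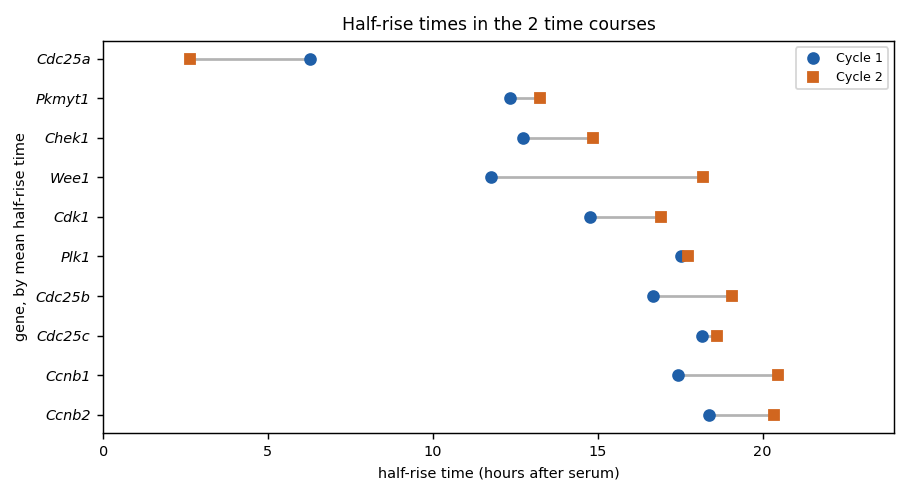
Half-rise time in hours after serum (x axis) of each gene, with a blue circle for Cycle 1 and an orange square for Cycle 2, sorted by the mean. Cdc25a lies far to the left (6.29 and 2.64 h), Ccnb2 at the end (18.4 and 20.4 h), and the grey line of Wee1 is the longest (11.8 to 18.2 h).

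The size of the rise, as the peak over the trough, was 18.7 times for Plk1, 15.4 for Cdc25c, 14.8 for Ccnb1, 12.9 for Ccnb2 and 10.8 for Cdk1 in Cycle 1, and 4.45 for Cdc25a, the smallest. In Cycle 2 it ran from 1.83 for Cdc25b to 2.86 for Ccnb1. Cdk1 peaked at 20 h in Cycle 1 and 22 h in Cycle 2, and Pkmyt1 at 18.5 and 20 h. Ccnb1, Wee1, Cdc25b, Chek1 and Plk1 had their peak of 15 to 27 h at 27 h of Cycle 2, its last library, which was kept as measured. Their peaks there rest on that library and are not bounded by later times. For Cdc25b the value at this peak, 393, was below both starved libraries of Cycle 2 (414 and 454) and below 457 at 1 h.

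After 30 h, which Cycle 1 alone covered, the phosphatases Cdc25b and Cdc25c, Ccnb2 and Plk1 had a second high, and Cdc25a a lower level. Cdc25c was at 209, 197, 202 and 194 at 28, 29, 30 and 31 h, and at 339, 412, 392 and 388 at 35, 36, 37 and 38 h. Cdc25b was at 327, 300.1, 325 and 374 and then at 626, 743, 638 and 524. Both sets stood apart with no overlap. Plk1 went from 1140 (at 28 h), 999, 1030.4 and 1125 to 1784, 1709, 1472 and 1289, and Ccnb2 from 882, 818, 787 and 785 to 1003, 1144, 1156 and 1309. Ccnb1 (479.6, 505, 442 and 494, then 807, 536, 615 and 544) also did not overlap. So 5 of the 10 had all 4 late libraries above all 4 earlier ones, which 23.8% of all genes did, and 1 had them all below, against 12.8%. That gene was Cdc25a, at 756, 735, 776 and 702, then 576, 562, 479 and 439. Cdk1 (2783, 2748, 3008 and 2922, then 3373, 3133, 2817 and 2521), Wee1, Pkmyt1 and Chek1 overlapped.

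The late hours have 1 library each, which the fit assumed to vary like the hours sampled in both courses. On that footing none of the 10 was called at 35 to 38 h against 28 to 31 h, where 5.51% of all genes were called higher and 2.51% lower. Cdc25c was at 0.93 (standard error 0.50, adjusted p = 0.166 from limma), Cdc25b at 0.92 (0.42, adjusted p = 0.0957) and Cdc25a at -0.54 (0.17, adjusted p = 0.0138, below the size of a call). At an unadjusted p under 0.05 1 gene was higher and 1 lower, and edgeR on whole reads called 0. Against 24 to 27 h of both courses none was called either, where 6.88% were higher and 3.10% lower of all. Cdc25c was at 1.02 (0.45, adjusted p = 0.0679) and Cdc25a at -0.51 (0.15, adjusted p = 0.00602), 2 were higher and 1 lower at an unadjusted p under 0.05, and edgeR again called 0.

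Taken from the smoothed course, the second high was 1.99 times the preceding low for Cdc25c, 1.96 for Cdc25b, 1.84 for Ccnb2 and 1.66 for Plk1. These 4 were the genes at 1.5 times or more, and they first held that level from 34 h (Cdc25b), 35 h (Cdc25c and Plk1) and 36 h (Ccnb2). The ratio was 1.44 for Wee1, 1.33 for Ccnb1, 1.27 for Pkmyt1, 1.13 for Cdk1, 1.10 for Chek1 and 0.946 for Cdc25a. The value of Pkmyt1 belongs to 24.5 h and not to a time after 30 h. For Wee1 and Ccnb1 the low was placed at 25 h, next to the 24.5 h library that stood apart. Against 28 to 31 h, their means at 35 to 38 h were 1.09 and 1.30 times as high. The second high reached 1.32 times the first peak for Ccnb2, 1.19 for Cdc25c and 1.12 for Cdc25b, but 0.699 for Cdk1. Ccnb2 was highest in the last library, at 38 h, so its second high is not bounded by later times.

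**Figure D5:**
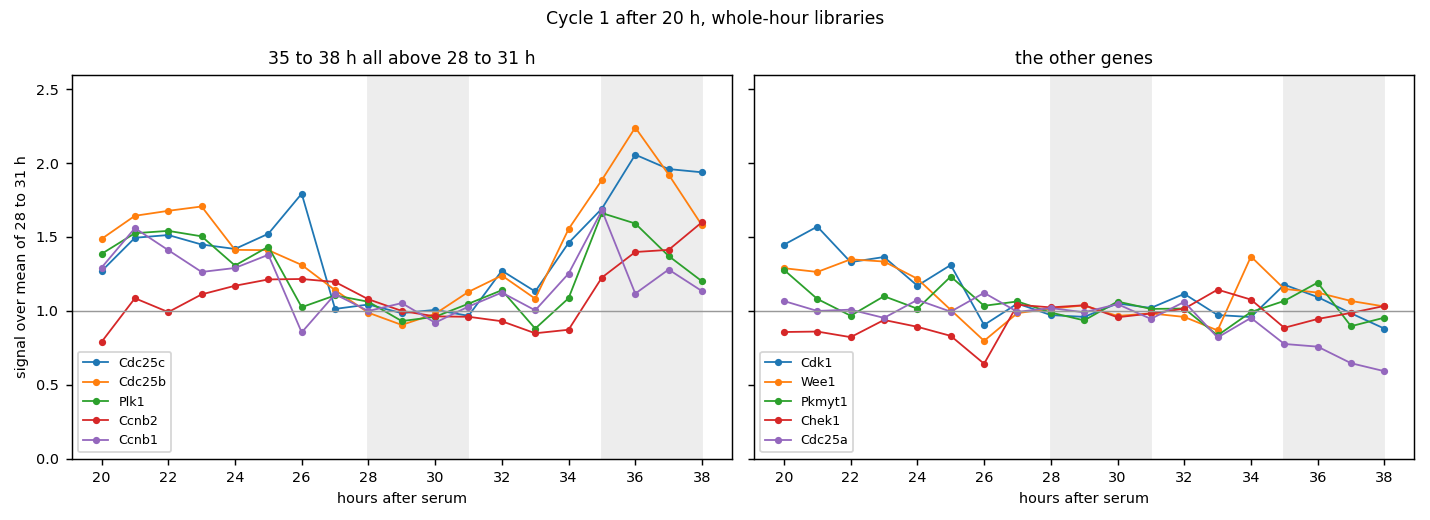
Signal of each gene in Cycle 1 divided by its mean at 28 to 31 h, against hours after serum, whole-hour libraries from 20 h, both compared windows shaded grey. Left are the 5 genes whose libraries at 35 to 38 h all lie above those at 28 to 31 h (Cdc25b reaches 743 at 36 h from a mean of 332), and right are the other 5, with Cdc25a ending at 439.

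The other genes of the pathway were taken from a list of 68 by role, all in the table. At 19 to 23 h against starved 18 of the 68 were called higher and 1 lower, against 6.99% and 18.4% of all genes, with a median log2 difference of 0.58. All 68 together had 31 higher and none lower from 7 to 10 h to 19 to 23 h, against 3.95% and 6.09% of all genes. Of 4 genes grouped as other cyclins and small kinase subunits 3 were higher at 19 to 23 h against starved. At the top was Ccnf (log2 difference 1.73, adjusted p = 9.29e-05 from limma), a cyclin that serves as an F-box protein. Cks2, a small subunit that binds Cdk1, was at 0.36 (adjusted p = 0.439 from limma). None of the 3 genes of the Cdk1-activating kinase was called, and Ccnh (-0.11) and Mnat1 (-0.04) bounded them. Of the 3 genes that activate Plk1, 2 were higher, with Aurka, the kinase that phosphorylates Plk1, at 1.59 (adjusted p = 0.00284) and its cofactor Bora at 0.85.

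Of the 17 mitotic genes 9 were higher at 19 to 23 h against starved, from Cenpf, a kinetochore protein, at 0.19 (adjusted p = 0.715) to Ube2c, the ubiquitin-conjugating enzyme of the anaphase-promoting complex, at 1.75 (adjusted p = 0.00146), and all 17 were called higher than at 7 to 10 h, against 3.95% of all genes. Of the 15 regulators of G2/M transcription 3 were higher, led by Mybl2 (B-Myb) at 1.63 (adjusted p = 0.00151), and 1 lower, the pocket protein Rbl2 (p130), at -1.19 (adjusted p = 4.66e-08). Of the 10 checkpoint genes 1 was higher, Clspn, the claspin that helps activate Chek1, at 1.13 (adjusted p = 0.0187), and Atm was at -0.27. None of the 5 Greatwall and PP2A-B55 genes (Ensa -0.32 to Ppp2r2a 0.63), of the 7 genes for 14-3-3 proteins (Sfn -0.17 to Ywhag 0.61) or of the 4 genes for turnover of Wee1 and Cdc25a (Btrc -0.62 to Skp1a 0.16) was called.

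The genes whose course was most like that of each member were ranked by the lower of its Pearson r in the 63 libraries of Cycle 1 and the 32 of Cycle 2, on log2(value + 1), among 9111 genes with a mean of at least 100. Successive libraries are not independent, so r is a description. Cdk1 ran closest to Birc5 (survivin, r 0.99 in Cycle 1 and 0.97 in Cycle 2) and Ube2c (0.98 and 0.97), Plk1 to Aurka (0.99 and 0.97) and Fam83d (0.98 and 0.96), Ccnb1 to Cdc20 (0.98 and 0.94) and Ube2c (0.99 and 0.94), and Ccnb2 to Kif23 (0.97 and 0.94) and Pttg1 (securin, 0.98 and 0.94). Cdc25c ran closest to Knstrn (0.99 and 0.95) and Ckap2 (0.99 and 0.94), and Cdc25b to Aspm (0.95 and 0.86) and Kif23 (0.97 and 0.85). For Wee1 they were Fbxo5 (Emi1, 0.95 and 0.91) and Cbx5 (0.94 and 0.90). The early genes had other neighbours, namely Cnpy4 (0.93 and 0.92) and Ngfrap1 (0.92 and 0.92) for Pkmyt1, Klhl26 (0.95 and 0.95) and Med22 (0.94 and 0.94) for Cdc25a, and 2810417H13Rik (0.95 and 0.95) and Ptprz1 (0.94 and 0.96) for Chek1. Among the 45 pairs of members r ran from 0.10 to 0.99 in Cycle 1 (median 0.87) and from -0.54 to 0.91 in Cycle 2 (median 0.67).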

How the data were processed

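Polyadenylated RNA was sequenced as single-end reads with a stranded kit. Per the labels, the authors demultiplexed with CASAVA, aligned with STAR to mm9 and counted reads on exons, both strands together, with HOMER, and the deposited values are this normalized signal. Versions were not given in the sources used here. Of 96 columns 95 were used, and 1 whose name matches no library was not. Between 94.2% and 96.2% of low values were whole reads within a tolerance of 0.1.

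Windows were compared with limma 3.58.1 (R 4.3.3, trend and robust options off) on log2(value + 1), with a mean per hour, 1 starved mean and the course as block, and Benjamini-Hochberg adjustment over all 15895 genes. A difference was called at an adjusted p under 0.05 and a log2 difference above 1 in size. Fold changes on this log2(value + 1) scale understate the change of low genes. No genes were filtered. edgeR 4.0.16 was run on whole reads (14721 genes) without the -1 h library of Cycle 1 and the 18 h library of Cycle 2, where a first search for the value of a single read had failed, and later on all libraries, whose reads were then recovered. Over 406 pairs of hours the differences between courses correlated with a median of 0.471 (-0.198 to 0.910), so the pairing by course is a hint from the data. In simulated counts for 19 to 23 h against starved, on 15895 genes, recovery was scored by an adjusted p under 0.05 alone, without the size rule. On that score limma recovered 100 of 100 genes changed 2-fold and 100 of 100 changed 4-fold, with 14 other genes passing. The changed genes all had a mean of at least 100, and the simulated difference between courses was constant over time, unlike that of the members. This therefore gives no rate for the calls used here. Other steps ran in Python 3.11.15 with scipy 1.17.1, pandas 2.3.3 and numpy 2.4.6, and matplotlib 3.10.9 drew the plots.

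The members and lists were chosen with earlier results of these data known. Named were all 10 members, per role of the list the genes with the largest and smallest difference at 19 to 23 h, and per member the 2 most alike genes. Alternatives covered the block, pseudocounts, filters, scaling, single libraries, smoothing and baselines. Counting errors cover the counting of reads only, while standard errors and SDs rest on the spread between libraries. Promoters come from RefSeq (GRCm38.p6) and gene positions from NCBIM37, and no position was converted between builds.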

Additional observations from a re-analysis of the deposited data

Results flagged for a closer look

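In 9 windows every library of Cycle 1 lay above its own starved mean and every library of Cycle 2 below its own. This is a position against each course's own starved libraries and not a course over time, and the difference between the courses was not tested. At 11 to 14 h this held for Cdk1, with a mean of 2.33 times starved in Cycle 1 and 0.723 times in Cycle 2, for Wee1 (1.61 and 0.69) and for Chek1 (1.45 and 0.756). At 15 to 18 h it held for Ccnb1 (2.80 and 0.616), Wee1 (2.24 and 0.779) and Cdc25c (1.87 and 0.591). At 19 to 23 h it held for Ccnb2 (2.55 and 0.837) and Cdc25b (1.99 and 0.785), and for Cdc25b also at 24 to 27 h (1.65 and 0.838). In each case the starved level of Cycle 2 was above that of Cycle 1, by 1.64 times for Cdc25b to 3.68 times for Ccnb1, and the part of the starved level was not tested.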

How the results depend on the processing

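The number of members called at 15 to 18 h against 7 to 10 h was 4 to 6, and at 19 to 23 h against 7 to 10 h 9, under each of the alternatives run, none of which left out a library of these hours other than the 18 h library of Cycle 2. With the pairing by course taken out of the model (no block), 1 member was called at 4 to 6 h, 1 at 7 to 10 h and 1 at 11 to 14 h against starved, and 6 genes of all at 19 to 23 h against 15 to 18 h and 2 at 24 to 27 h against 19 to 23 h. With edgeR on whole reads 1 member was called in each of the same 3 early windows, and on all libraries, a fit added after seeing the data, 1, 2 (Ccnb2 and Cdc25a) and 1, with Ccnb2 added at 24 to 27 h (1.03), with a pseudocount of 10 1 at 7 to 10 h and 1 at 11 to 14 h, and with TMM scaling 1 at 11 to 14 h. Leaving out a starved library moved the members called to 0 to 2 at 1 to 3 h, 2 to 3 at 4 to 6 h, 2 to 3 at 7 to 10 h, 1 at 11 to 14 h, 1 to 3 at 15 to 18 h, 2 to 5 at 19 to 23 h and 0 to 5 at 24 to 27 h. The low ends of the last 3 came without the -1 h (1, 2 and 3) or 0 h (1, 2 and 0) library of Cycle 1. Each course alone gave a value with no test. Cdk1 at 15 to 18 h against starved was the called value whose sign turned, at -0.07612 without Cycle 1 against 2.143 without Cycle 2, and the cause was not tested.

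The number of all genes called fell when low values counted less, since fewer low genes pass or are tested. With a pseudocount of 10 it was 1562, 2695, 2367, 2228, 2240, 2459 and 2442 for the windows from 1 to 3 h to 24 to 27 h against starved, 565 at 15 to 18 h against 7 to 10 h, 7 at 19 to 23 h against 15 to 18 h, 875 at 19 to 23 h against 7 to 10 h, and 626 and 711 at 35 to 38 h against 28 to 31 h and 24 to 27 h. With only genes of a mean value of at least 100 the numbers in this order were 1011, 1630, 1348, 1320, 1337, 1481, 1427, 447, 6, 623, 435 and 515. At 24 to 27 h against 19 to 23 h 9 genes were called with a pseudocount of 0.1 and 7 with a mean value of at least 10. With 34 to 36 h in place of 35 to 38 h, 581 and 842 genes were called in the late comparisons, and no member in either, as in all other alternatives there.

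Spearman's rho between the half-rise times of the courses was 0.455 without smoothing, 0.939 with the midpoint on the log2 scale, 0.976 at 25% and 0.552 at 75% of the way, 0.842 with whole-hour libraries only and 0.467 from the 7 to 10 h mean, which was chosen after seeing the data. Between 6 and 10 members had a later half-rise in Cycle 2. The number with a second high of at least 1.5 times the low was 3 to 4 when a late library was left out (3 without 35 h or 36 h) and 6 without smoothing. Under TMM scaling 4 members in Cycle 1 and 0 in Cycle 2 stayed at or below 0.5 of starved. The step 19 to 23 h against 7 to 10 h and the low searched at 28 to 34 h were likewise added after seeing the data. The late hours rest on 1 library each, and the early lows of Cdc25c on as few as 13 reads.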
